A study of Mus musculus with 10 samples.

Results

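Transcription of the feedback and output genes of FGF-ERK signalling was followed after degradation of SOX2 in mouse embryonic stem cells. The genes were taken by symbol from the list Spry2, Spry4, Dusp6, Dusp4, Spred1, Spred2, Etv4, Etv5, Fgfr1 and Fgfr2, and Fgf4 was set beside them as the ligand. Of these 10 symbols, 9 named a transcribed unit (TU, a stretch of continuous nascent transcription on 1 strand) among 40779 TUs, and all 9 were among the 28459 TUs with enough fragments to be tested. No TU carried the symbol Fgfr1. A TU without a symbol covered that gene on its own strand and is described by position, outside the 9.

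FGF ligands bind FGF receptors together with heparan sulphate chains on the cell surface, and the receptors signal through adaptor proteins to RAS, RAF, MEK and finally the kinase ERK. ERK activity raises transcription of its own inhibitors, the Sprouty and Spred proteins and the DUSP phosphatases, and of the ETS factors ETV4 and ETV5, so that these genes are commonly read as a gauge of the pathway. In mouse embryonic stem cells, FGF4 is made by the cells themselves, its gene is a classical target of SOX2 and OCT4, and ERK signalling prepares the cells to leave the naive state.

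All 10 libraries came from the E14 line with the genotype SOX2-FKBP, in which the SOX2 protein carries a degron tag, so that the small molecule dTAG-13 directs it to degradation. The 5 groups of 2 replicates were NT cells, which were given DMSO, and cells given 500 nM dTAG-13 and harvested 0.5, 1, 2 or 6 h later, called hpd for hours post depletion. Every group was grown with LIF, the GSK3-β inhibitor CHIR99021 at 3 µM and the MEK inhibitor PD0325901 at 1 µM, so that the kinase just above ERK was inhibited in NT and depleted cells alike. Untagged cells given dTAG-13 were not analysed here. Newly made RNA was labelled with 2 mM 4-thiouridine (4SU) for 10 min, captured and sequenced (TT_chem_seq), and a TU over a gene therefore counts exons and introns together. The labels do not say that replicates were separate cultures, so p-values measure the spread between these libraries, which may be technical.

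Libraries held 11131490 to 25854106 fragments. The Sox2 TU itself showed no called change (log2 fold changes within 0.12 of 0 at every time), which is no check of a protein degraded after translation, while Klf2, a pluripotency factor gene, fell from 78.0 CPM in NT to 12.9 CPM at 0.5 hpd and 6.51 CPM at 6 hpd. All 9 markers of embryonic stem cells were tested, and their summed level was 4109 to 4518 CPM in NT and 3554 to 3824 CPM at 6 hpd, most of it from Zfp42, Esrrb and Tfcp2l1. Of the 9, 1, 2, 4 and 5 were called down at the 4 times, beside 0.787%, 3.61%, 5.57% and 9.20% of all tested TUs. Among them were Utf1 (-1.78 ± 0.23 at 6 hpd) and Pou5f1 (-0.62 ± 0.11). Some earlier calls were lost when single libraries were left out. These were Dppa5a at 0.5 hpd (-1.03 to -0.79), Utf1 at 1 hpd (-1.39 to -0.79) and Pou5f1 at 2 hpd (-0.47 to -0.32), among others. CPM are fragment counts relative to the size of the library, after scaling by TMM factors, and a TU was called at an edgeR quasi-likelihood adjusted p under 0.05, with Benjamini-Hochberg adjustment over all 28459 TUs. Since RNA was read in bulk, fewer transcribing cells and less RNA per cell cannot be told apart.

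Per length of its TU, Etv5 was the most transcribed gene in NT, at 7.48 ± 0.394 CPM per kb (mean ± SD, n = 2 here and throughout). Fgf4 followed at 3.90 ± 0.204 and Spred2 at 2.44 ± 0.117 CPM per kb. Spry2 at 1.32 ± 0.129, the unit over Fgfr1 at 1.17 ± 0.0415 and Etv4 at 1.16 ± 0.0975 CPM per kb overlapped within 1 SD, although both Spry2 libraries lay above both of each of the others, and Spred1 lay close by at 0.994 ± 0.0185 CPM per kb. Dusp6 reached 0.789 ± 0.181 CPM per kb. Spry4 at 0.158 ± 0.0786, Fgfr2 at 0.103 ± 0.0185 and Dusp4 at 0.0828 ± 0.0603 CPM per kb were the least transcribed and were not separated by their spread. All of these levels were read with the MEK inhibitor present.

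The TUs differed in how far they matched the annotated genes and in what lay opposite them. The Spry2 TU (mm10, chr14:105850433-105900949, minus strand) ran 41.5 kb past the annotated gene end, and only 9.65% of it lay in the gene. The Fgf4 TU (chr7:144851533-144885336, plus strand) was in the gene for 11.4% of its length. The Etv4 TU (chr11:101765482-101787983, minus strand) lay for all of its 22.5 kb opposite the TU of Dhx8, an RNA helicase gene, and the Dusp4 TU (chr8:34808351-34822838, plus strand) overlapped the opposite TU of Tnks by 5.60 kb. Among opposite units without a symbol, the longest overlaps were 25.6 kb for Etv5, 22.0 kb for Fgf4, 14.3 kb for Spry2 and 8.30 kb for Spred2. Dusp6 (chr10:99261505-99272916, plus strand), Spred1 (chr2:117120825-117201860, plus strand), Spred2 (chr11:19917753-20032021, plus strand), Etv5 (chr16:22365113-22442209, minus strand), Fgfr2 (chr7:130159651-130266201, minus strand) and Spry4 held between 37.3% and 97.4% of their TU in the annotated gene, exons and introns together.

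Promoter sequences were found for 7 of the 11 genes, counting Fgf4, in the RefSeq table of assembly GRCm38.p6 (mm10). The 250 bases before the start are shown for 3 genes that rose and for Fgf4, which fell, 5′ to 3′ on the strand of the gene. This start is that of the annotated gene, not of the TU. The TU began 4.13 kb before it for Spry2, 6.69 kb for Spred2 and 9.85 kb for Fgf4. For Fgfr2 it began 0.607 kb after it. Capitals mark CTTTGT, a core of the SOX binding motif, on either strand.
Spry2 promoter, chr14:105896820-105897069, minus strand: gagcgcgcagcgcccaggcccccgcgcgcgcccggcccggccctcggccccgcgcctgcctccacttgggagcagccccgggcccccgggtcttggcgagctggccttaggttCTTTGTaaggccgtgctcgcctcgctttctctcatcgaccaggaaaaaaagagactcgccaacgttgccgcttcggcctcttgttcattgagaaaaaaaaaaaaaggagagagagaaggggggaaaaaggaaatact
Spred2 promoter, chr11:19924192-19924441, plus strand: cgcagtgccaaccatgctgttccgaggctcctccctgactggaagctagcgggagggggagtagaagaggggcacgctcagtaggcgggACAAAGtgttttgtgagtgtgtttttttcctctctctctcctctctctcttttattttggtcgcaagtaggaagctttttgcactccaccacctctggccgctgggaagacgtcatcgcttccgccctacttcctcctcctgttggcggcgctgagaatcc
Fgfr2 promoter, chr7:130266809-130267058, minus strand: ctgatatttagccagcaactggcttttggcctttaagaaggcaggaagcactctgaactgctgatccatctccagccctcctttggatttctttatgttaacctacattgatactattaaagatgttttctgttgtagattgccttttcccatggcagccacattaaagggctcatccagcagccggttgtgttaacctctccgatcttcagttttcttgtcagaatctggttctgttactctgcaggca
Fgf4 promoter, chr7:144861136-144861385, plus strand: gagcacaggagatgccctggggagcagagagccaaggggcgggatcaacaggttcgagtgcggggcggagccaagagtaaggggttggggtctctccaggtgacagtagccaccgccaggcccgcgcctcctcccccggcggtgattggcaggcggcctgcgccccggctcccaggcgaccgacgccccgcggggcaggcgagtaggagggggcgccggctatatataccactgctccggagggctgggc
CTTTGT stood once in the Spry2 window, at base -137 from the start on the same strand, and once in the Spred2 window, at base -161 on the opposite strand. The windows of Fgfr2 and Fgf4 did not hold it. A further match lay across a start of Etv5, at base -3 on the opposite strand, outside the 250 bases. Over all 32851 promoters in the table, 16.5% held this motif in the same 250 bases, on either strand. The other motifs searched on both strands, from 250 bases before to 50 after the start, were CATTGT (a second SOX core), ATGCAAA (an octamer core), CCGGAAG (an ETS site) and TGANTCA (an AP-1 site, where N is any base), and none of the promoters of the 7 genes held one, against 12.6%, 4.63%, 8.86% and 7.81% of all promoters. A match or its absence describes these letters in this window only.

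To see what happened to the ligand, Fgf4 was compared with NT at each time. Fgf4 gave 136.8 and 127 CPM in NT, 89.6 and 112 after 0.5 h, 64.9 and 70.2 after 1 h, 45.5 and 58.4 after 2 h, and 47.6 and 51.2 after 6 h. Every depleted library lay below both NT libraries, and the levels at 2 and 6 hpd overlapped. Against NT, the log2 fold change of Fgf4 was -0.39 ± 0.13 (SE) at 0.5 hpd with an adjusted p of 0.214, and it fell by 0.97 ± 0.13 at 1 hpd (adjusted p 3.48e-04), by 1.35 ± 0.13 at 2 hpd (1.23e-05) and by 1.42 ± 0.13 at 6 hpd (4.76e-06). The last of these is a 2.67-fold decrease.

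**Figure D1:**
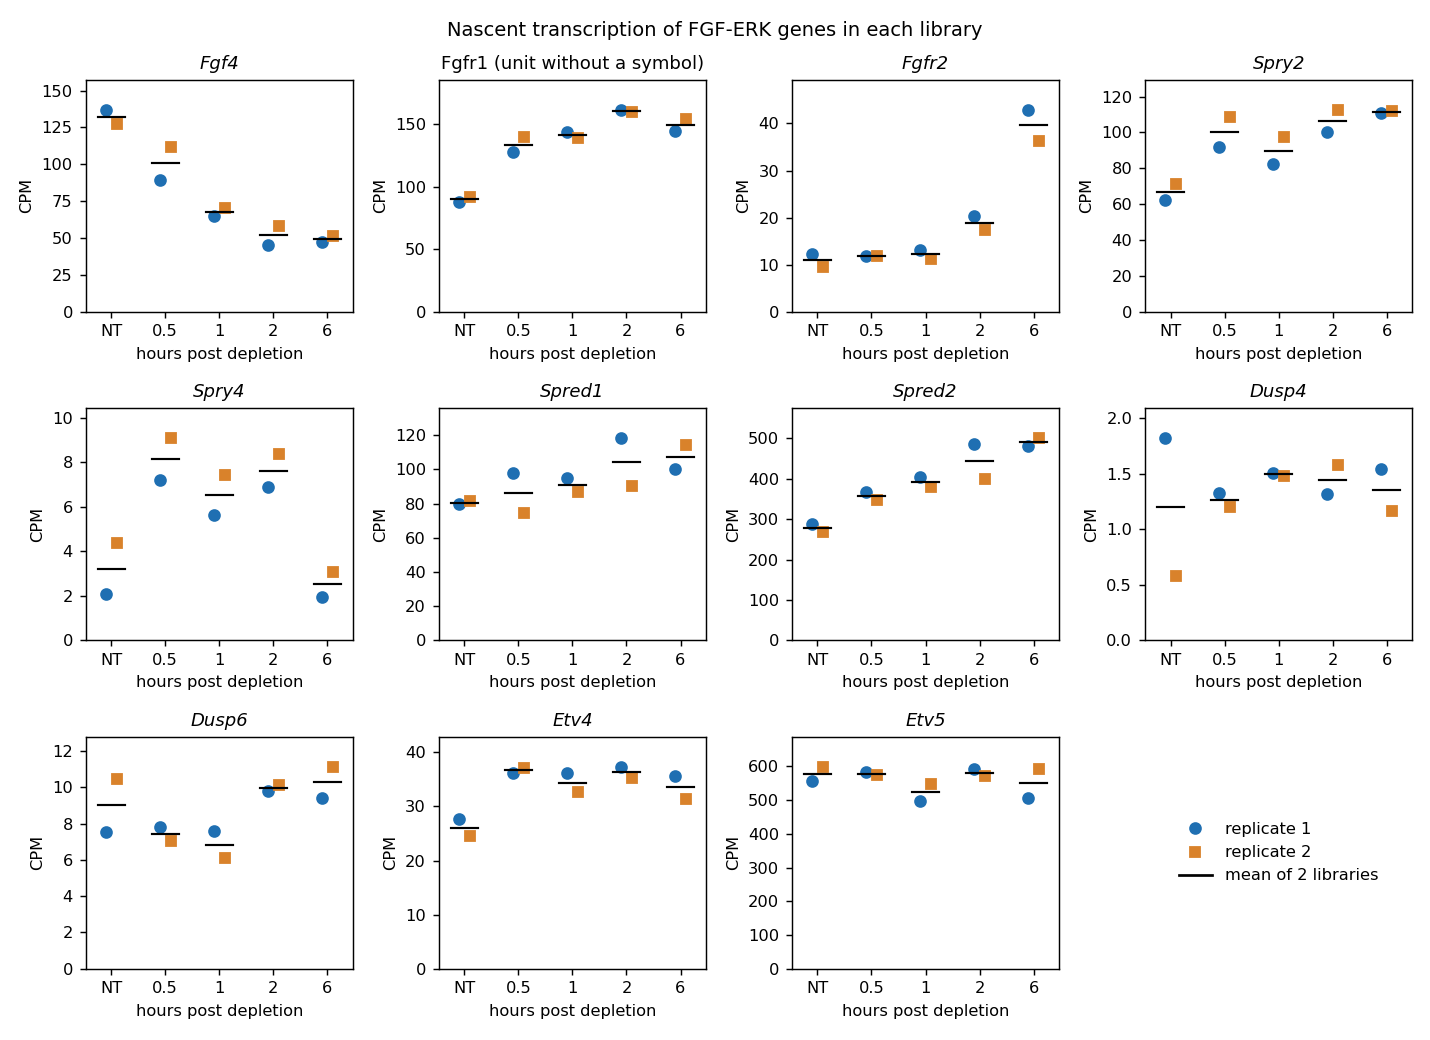
CPM (vertical axes, from 0) of Fgf4, the unit over Fgfr1 and the 9 feedback and output genes in each of the 10 libraries, with NT and hours post depletion on the horizontal axes. Circles are replicate 1, squares replicate 2 and bars the mean of both. Fgf4 steps down from 132 CPM on average in NT to 49.4 at 6 hpd, Fgfr2 climbs at 2 and 6 hpd only, Spry4 is high from 0.5 to 2 hpd and back in the NT range or below at 6 hpd, and Etv5 stays between 498 and 598 CPM.

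Both receptor genes rose while the ligand fell, the unit over Fgfr1 from 0.5 hpd and Fgfr2 from 2 hpd, and whether their courses differed was not tested. FGFR2 is a receptor known to mark precursors of the primitive endoderm. Its libraries gave 12.4 and 9.59 CPM in NT, 11.9 and 11.8 after 0.5 h, 13.2 and 11.3 after 1 h, 20.3 and 17.4 after 2 h, and 42.9 and 36.3 after 6 h. The first hour overlapped NT, both libraries at 2 hpd stood above it, and both at 6 hpd stood above every other library. Log2 fold changes were 0.11 ± 0.16 and 0.15 ± 0.16 at 0.5 and 1 hpd (adjusted p 0.923 and 0.673). Fgfr2 rose by 0.78 ± 0.16 at 2 hpd (adjusted p 0.00477) and by 1.84 ± 0.15 at 6 hpd (1.55e-06), a 3.59-fold increase and the largest change among the 9 genes. Leaving out NT replicate 2 (0.61, adjusted p 0.0787) or 2 hpd replicate 1 (0.66, adjusted p 0.0522) ended the call at 2 hpd, whereas the call at 6 hpd was made in every setting run.

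The annotated Fgfr1 gene (chr8:25518759-25575718, plus strand) lay wholly within a TU without a symbol (chr8:25513202-25590256, same strand), of which 73.9% was in the gene. The authors' annotation classes this unit as antisense to a gene body, although it runs on the strand of Fgfr1. FGFR1 is the receptor that embryonic stem cells mainly use. This unit gave 87.8 and 92.3 CPM in NT, 128 and 139.8 after 0.5 h, 144 and 139 after 1 h, 162 and 160.1 after 2 h, and 145 and 154 after 6 h. All depleted libraries lay above both NT libraries, and the first step, within 0.5 h, was already most of the change. It rose at each time, by log2 0.57 ± 0.099 (adjusted p 0.0083), 0.65 ± 0.099 (8.09e-04), 0.84 ± 0.099 (5.78e-05) and 0.73 ± 0.099 (1.28e-04). Leaving out NT replicate 1 (0.53, adjusted p 0.0761), NT replicate 2 (0.61, 0.069) or 0.5 hpd replicate 2 (0.52, 0.0645) ended the call at 0.5 hpd.

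The Sprouty proteins restrain signalling from receptor tyrosine kinases to RAS and RAF. Spry2 gave 62.2 and 71.4 CPM in NT, 91.9 and 109 after 0.5 h, 82.3 and 97.5 after 1 h, 100 and 113 after 2 h, and 111 and 112 after 6 h. All 8 depleted libraries were above both NT libraries. Replicate 2 was the higher library in each of the 5 groups, as it was for Spry4. For Fgfr2, replicate 1 was the higher in each of the 5 groups. Spry2 rose by log2 0.58 ± 0.12 at 0.5 hpd (adjusted p 0.0275), by 0.67 ± 0.12 at 2 hpd (0.00233) and by 0.74 ± 0.12 at 6 hpd (7.80e-04, 1.67-fold), and was 0.43 ± 0.12 above NT at 1 hpd (adjusted p 0.054, called by DESeq2 at 0.0219). The early call rested on single libraries, since it was not made without NT replicate 1 (0.49, adjusted p 0.231), NT replicate 2 (0.69, 0.114) or 0.5 hpd replicate 2 (0.47, 0.212), while the calls at 2 and 6 hpd were made in every setting run.

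Spry4 (TU at chr18:38580907-38601365, minus strand) followed a transient course. Its libraries held 2.09 and 4.36 CPM in NT (31 and 60 fragments), 7.22 and 9.07 after 0.5 h, 5.65 and 7.40 after 1 h, 6.88 and 8.36 after 2 h, and 1.97 and 3.09 after 6 h (28 and 53 fragments). The 6 libraries from 0.5 to 2 hpd all lay above the NT and 6 hpd libraries, which overlapped each other. Spry4 rose by log2 1.33 ± 0.29 at 0.5 hpd (adjusted p 0.0368) and by 1.25 ± 0.29 at 2 hpd (0.0128), with 1.03 ± 0.30 at 1 hpd (0.0564, called by DESeq2 at 0.0274), and its value at 6 hpd was -0.32 ± 0.33 (0.55). Compared directly, Spry4 fell by 1.57 ± 0.30 from 2 to 6 hpd (adjusted p 0.0223, 2.97-fold) and by 1.35 ± 0.30 from 1 to 6 hpd (0.0165). These are small counts, and the calls moved with single libraries. Leaving out NT replicate 1 (0.88, adjusted p 0.283), 0.5 hpd replicate 1 (1.50, 0.0737) or 0.5 hpd replicate 2 (1.18, 0.182) ended the call at 0.5 hpd, and NT replicate 1 (0.80, 0.121) that at 2 hpd. The fall from 2 to 6 hpd kept its direction but not its call without 2 hpd replicate 2 (-1.39, 0.122), 6 hpd replicate 1 (-1.29, 0.24) or 6 hpd replicate 2 (-1.95, 0.0589), as did the fall from 1 to 6 hpd without 1 hpd replicate 2 (-1.14, 0.175) or 6 hpd replicate 1 (-1.09, 0.172).

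The Spred proteins inhibit activation of RAF and recruit neurofibromin to RAS. Spred2 gave 288 and 269 CPM in NT, 367 and 347 after 0.5 h, 404 and 380.2 after 1 h, 487 and 401 after 2 h, and 482 and 499.9 after 6 h. Both libraries of each depleted group were above NT, and the group means increased at each step. Spred2 was 0.36 ± 0.11 above NT at 0.5 hpd (adjusted p 0.18) and rose by log2 0.49 ± 0.11 at 1 hpd (0.0158), 0.67 ± 0.11 at 2 hpd (0.00121) and 0.82 ± 0.11 at 6 hpd (1.55e-04, 1.76-fold). Spred2 was not called at 1 hpd without NT replicate 2 (0.46, adjusted p 0.135), 1 hpd replicate 1 (0.45, 0.185) or 1 hpd replicate 2 (0.54, 0.0867), and those at 2 and 6 hpd were made in every setting run. Spred1 gave 79.5 and 81.6 CPM in NT and 101 and 114 at 6 hpd, with 74.2 to 118 CPM in between. It overlapped NT at 0.5 hpd and lay above it from 1 hpd on, with log2 fold changes of 0.10, 0.18, 0.37 and 0.41 (SE 0.14 each), and none passed the test (adjusted p 0.916, 0.567, 0.118 and 0.0632). The 95% interval at 6 hpd ran from 0.11 to 0.72. Spred1 was called at 6 hpd in a fit of only NT and 6 hpd (0.39, adjusted p 0.00547) and when any 1 library of 0.5 or 2 hpd was left out (0.41 to 0.43, 0.0212 to 0.0364), and at 2 hpd without 2 hpd replicate 2 (0.54, 0.0227). Whether Spred1 and Spred2 differed in their change was not tested.

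DUSP6 and DUSP4 remove phosphate from ERK, DUSP6 in the cytoplasm and DUSP4 in the nucleus. Dusp6 gave 7.54 and 10.5 CPM in NT, 7.81 and 7.01 after 0.5 h, 7.59 and 6.09 after 1 h, 9.81 and 10.1 after 2 h, and 9.41 and 11.1 after 6 h. The range of NT overlapped that of each depleted group, and the lowest library was replicate 2 of 1 hpd. Log2 fold changes were -0.27, -0.40, 0.15 and 0.20 from 0.5 to 6 hpd (SE 0.18 to 0.19), and none passed the test (adjusted p 0.767, 0.294, 0.675 and 0.507). Dusp4 held 8 to 34 fragments per library, and its 95% interval at 6 hpd ran from a log2 fold change of -0.76 to 1.04. None of its changes passed the test, and a 2-fold rise lay within this interval.

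ETV4 and ETV5 are ETS transcription factors of one subfamily. Etv4 gave 27.7 and 24.6 CPM in NT, 36.3 and 37.1 after 0.5 h, 36.2 and 32.6 after 1 h, 37.3 and 35.3 after 2 h, and 35.7 and 31.4 after 6 h. All depleted libraries were above both NT libraries, at levels that overlapped from one time to the next except between 0.5 and 1 hpd. Its log2 fold changes were 0.49 ± 0.12 (adjusted p 0.0552), 0.40 ± 0.12 (0.0615), 0.47 ± 0.12 (0.0165, called) and 0.36 ± 0.12 (0.04999, called). At 0.5 hpd Etv4 was called under a filter at a mean of 50 fragments (0.0325) and when either library of 2 hpd was left out (0.0436 and 0.0427), and at 1 hpd under that filter (0.0377), in a fit of only the compared libraries (0.029) and when 2 hpd replicate 2 was left out (0.0411). The call at 6 hpd was at the threshold and was lost without any 1 of 6 libraries, NT replicate 2, 0.5 hpd replicate 1 and both replicates of 1 and 6 hpd, with values of 0.28 to 0.45 and adjusted p of 0.0595 to 0.256, and leaving out NT replicate 2 (0.39, 0.148) or 2 hpd replicate 1 (0.43, 0.10) ended the call at 2 hpd. The opposite TU of Dhx8, with log2 fold changes of -0.02 to 0.13, was not called at any time.

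Etv5 was not called at any time. It gave 555 and 598 CPM in NT, 583 and 573 after 0.5 h, 498 and 548 after 1 h, 590.5 and 569.8 after 2 h, and 507 and 592 after 6 h. Both libraries at 1 hpd were below NT and all other groups overlapped it. The log2 fold changes were 0.0037, -0.14, 0.0093 and -0.069 (SE 0.11 each, adjusted p 0.545 to 0.998), and the 95% interval at 6 hpd ran from -0.30 to 0.16. Whether Etv4 and Etv5 differed in their change was not tested.

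**Figure D2:**
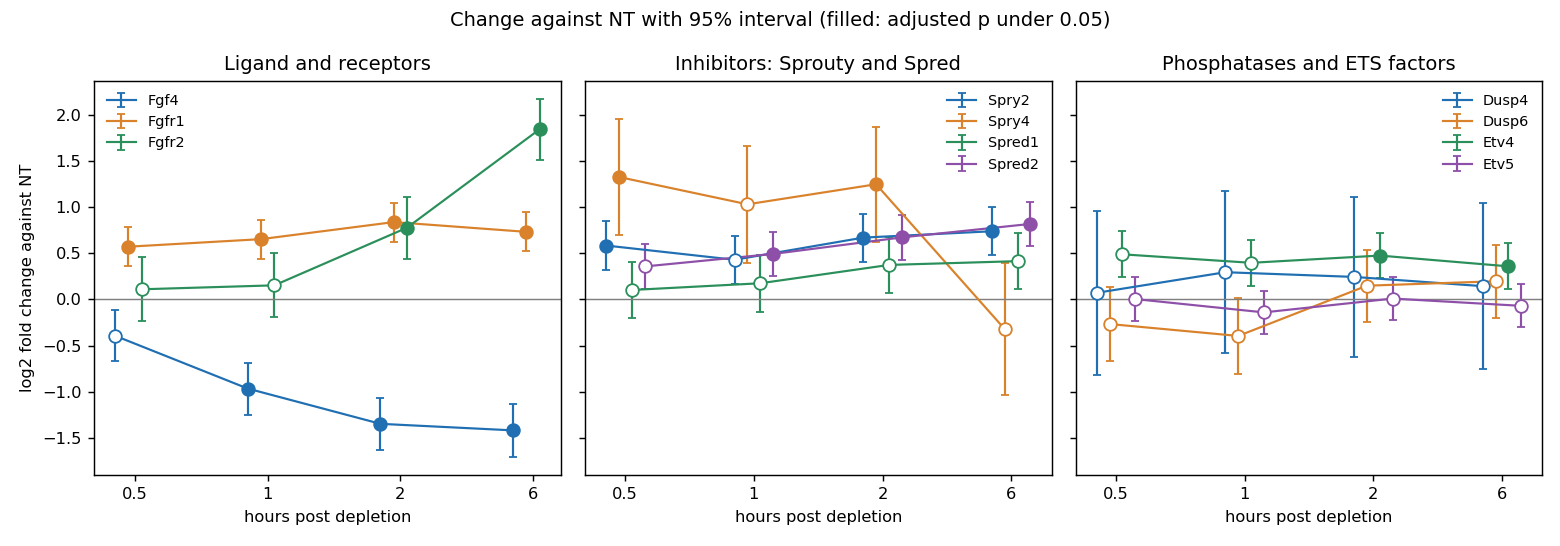
Log2 fold change against NT (vertical axis) at each time (horizontal axis, hours post depletion) for the ligand and receptors, the Sprouty and Spred inhibitors, and the phosphatases and ETS factors. Bars are 95% intervals from the edgeR fit and filled points passed the test. Fgf4 descends to -1.42, Fgfr2 climbs to 1.84, Spry4 returns from 1.25 at 2 hpd to -0.32 at 6 hpd, and the DUSP genes and Etv5 keep open points throughout.

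Among the 9 genes, 2 (Spry2 and Spry4) were called up at 0.5 hpd, where 0.527% of all tested TUs and 0.834% of tested TUs with a gene symbol were called up. Spred2 was the 1 gene called up at 1 hpd, beside 2.15% of TUs and 3.55% of those with a symbol. At 2 hpd there were 5 (Spry2, Spry4, Spred2, Etv4 and Fgfr2), beside 4.26% and 6.88%, and at 6 hpd 4 (Spry2, Spred2, Etv4 and Fgfr2), beside 6.61% and 10.4%. Of all tested TUs 0.787%, 3.61%, 5.57% and 9.20% were called down at the 4 times. None of the 9 genes was called down at any time by edgeR or DESeq2, and none had a negative change with an unadjusted p under 0.05. The median log2 fold change of the 9 genes was 0.11, 0.30, 0.48 and 0.36 from 0.5 to 6 hpd, beside -0.022, -0.043, -0.040 and -0.036 over all tested TUs. Over the tested TUs with a symbol, it was 0.0073, 0.024, 0.047 and 0.071. The 4 comparisons share the NT libraries, so their values are not independent of each other. A joint test of the 4 times called 5 of the 9 genes (Fgfr2, Spred2, Spry4, Spry2 and Etv4, adjusted p 1.67e-06 to 0.0477), against 12.3% of TUs, and 3 without NT replicate 1.

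These counts moved with single libraries at 0.5 and 1 hpd. The 2 calls at 0.5 hpd became 0 without NT replicate 1 or 0.5 hpd replicate 2, and 1 without NT replicate 2 or 0.5 hpd replicate 1. The single call at 1 hpd became 0 without 1 hpd replicate 1 or 2, 2 without 0.5 hpd replicate 1, 3 without 0.5 hpd replicate 2 or 2 hpd replicate 1, and 4 without 2 hpd replicate 2. The 5 calls at 2 hpd became 3 without NT replicate 2 or 2 hpd replicate 1. With DESeq2, 2, 3, 5 and 3 genes were called up, and with the unit over Fgfr1 counted as a member the numbers were 3, 2, 6 and 5.

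Later times were also compared directly with each other, without NT. Fgfr2 rose by log2 1.07 ± 0.14 from 2 to 6 hpd (adjusted p 0.00204, 2.09-fold) and by 1.69 ± 0.15 from 1 to 6 hpd (1.58e-05). Fgfr2 up and Spry4 down were the 2 calls among the 9 genes in each of these comparisons. Of all TUs, 0.260% were called up and 0.517% down from 2 to 6 hpd, and 1.96% and 2.92% from 1 to 6 hpd. In the steps from 0.5 to 1 and from 1 to 2 hpd, edgeR called none of the 9 genes, against 0.109% and 0.218% of TUs, with 0 and 2 genes at an unadjusted p under 0.05. Those 2 were Fgfr2 (0.62, unadjusted p 9.84e-04, adjusted p 0.187) and Dusp6 (0.54, unadjusted p 0.0105, adjusted p 0.544), named here after their values were seen.

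The course of Fgfr2 was the most pronounced, and the TUs with a gene symbol whose log2 CPM over the 10 libraries resembled it most were Cflar (Pearson r 0.988), Stx7 (0.985) and Arrdc4 (0.979). These 3 had log2 fold changes of 0.80, 0.74 and 0.78 at 6 hpd, smaller than that of Fgfr2. The likeness is a description over 10 libraries that share 5 groups.

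The rest of the pathway was read from 90 genes, of which 69 had a TU and 64 were tested. At 0.5 hpd edgeR called none of the 64 in either direction, with 9 at an unadjusted p under 0.05, and 1.31% of all TUs. It called 3 genes higher and 4 lower than NT after 1 h (5.75% of all TUs), 12 higher and 6 lower after 2 h (9.83%), and 13 higher and 7 lower after 6 h (15.8%). The median log2 fold change of the 64 was 0.064, 0.13, 0.23 and 0.11. In all, 16 genes were called up and 8 down at some time. These counts pool the 4 times, and the matching shares of all TUs were not computed.

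Of the ligand genes, 3 were called down and none was called up. Of 18 FGF genes 7 had a TU and 5 were tested. Those called down at 6 hpd, beside 9.20% of all TUs, were Fgf4, its neighbour Fgf3 (-2.43 ± 0.40, adjusted p 6.78e-04) and Fgf10 (-1.47 ± 0.18, 4.40e-05). Fgf3 held a mean of 17 fragments per library. Fgf18 and Fgf2, the others tested, were not called at any time. Fgf2, named after its values were seen, was 0.82 ± 0.32 above NT at 2 hpd (adjusted p 0.129). Its value at 6 hpd was -0.51 ± 0.37 (0.368). No gene among the 4 tested receptors and coreceptors outside the 9 was called at any time (edgeR, 0 to 2 at an unadjusted p under 0.05). Of 10 tested genes of heparan sulphate synthesis and proteoglycans, Glce, the epimerase that shapes the chain, rose from 1 hpd on (0.62 ± 0.12 at 6 hpd, adjusted p 0.00223), and the glypican gene Gpc4 rose at 2 and 6 hpd (0.46 ± 0.14 at 6 hpd, 0.0341). Sulf1, a sulphatase that trims the chain, fell at 1 and 2 hpd (-0.65 ± 0.14 at 1 hpd, 0.0119), with a value of -0.0043 at 6 hpd. Of these 10 genes, 1, 2 and 2 were called up at 1, 2 and 6 hpd, beside 3.55%, 6.88% and 10.4% of TUs with a symbol. At 1 and 2 hpd 1 was called down, beside 3.57% and 5.34%.

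Of 22 tested adaptor and cascade genes, 4 rose at 2 hpd and 5 at 6 hpd, beside 6.88% and 10.4% of all TUs with a symbol, and none was called down. Some stood below NT without passing the test, such as Frs3 at 6 hpd (-0.54 ± 0.19, adjusted p 0.0695) and Hras (-0.31 ± 0.18, 0.252), both named after their values were seen. Those called up at 6 hpd included the adaptor gene Gab2 (1.12 ± 0.24, adjusted p 0.00524), the RAS exchange factor genes Sos2 (0.86 ± 0.13, 4.49e-04) and Sos1 (0.51 ± 0.14, 0.0238), and Frs2 (0.60 ± 0.12, 0.0043), the adaptor that docks on FGF receptors. The tested genes of RAS, RAF, MEK and ERK themselves were not among those called, and Nras had no TU.

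Of 13 tested genes of other inhibitors, 2, 4 and 5 rose at 1, 2 and 6 hpd and 1 fell at 6 hpd, and the rest did not pass the test. The shares of all TUs with a symbol called up were 3.55%, 6.88% and 10.4% at these times, and 7.75% were called down at 6 hpd. Those with the largest changes were Dusp9, a phosphatase of ERK (0.99 ± 0.18 at 6 hpd, adjusted p 0.00159), Nf1, the RAS inhibitor neurofibromin (0.76 ± 0.13 at 6 hpd, 0.00112), Dusp5, a nuclear ERK phosphatase (0.88 ± 0.23 at 1 hpd, 0.035, with -0.18 ± 0.25 at 6 hpd), and Dusp1, which fell (-0.71 ± 0.13 at 6 hpd, 0.00176). Spry1 and Spred3, the relatives of the Sprouty and Spred genes above and named after their values were seen, rose by 0.57 ± 0.097 (9.40e-04) and 0.61 ± 0.15 (0.011) at 6 hpd.

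ERK output genes outside the 9 split in direction. Of 10 tested, 2 fell at 1 hpd (3.61% of all TUs called down), 2 rose and 3 fell at 2 hpd (4.26% up, 5.57% down), and 1 rose and 3 fell at 6 hpd (6.61% up, 9.20% down). Myc, at a mean of 20 fragments per library, fell by 2.07 ± 0.36 at 6 hpd (adjusted p 0.00108). Ccnd1, the cyclin D1 gene, fell by 2.02 ± 0.19 (4.17e-06). Phlda1 rose by 1.83 ± 0.29 at 6 hpd (5.16e-04) from 0.983 to 3.49 CPM, and Fos, an immediate early gene, rose by 1.23 ± 0.37 at 2 hpd (0.0478). Etv1, the relative of Etv4 and Etv5 and named after its values were seen, fell by 0.84 ± 0.15, 0.60 ± 0.15 and 0.51 ± 0.15 at 1, 2 and 6 hpd (0.00291, 0.0189 and 0.0311), calls that were each lost without NT replicate 2 (-0.66, -0.43 and -0.33, adjusted p 0.0788, 0.229 and 0.324) and at 6 hpd also without 6 hpd replicate 1 (-0.29, 0.308).

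**Figure D3:**
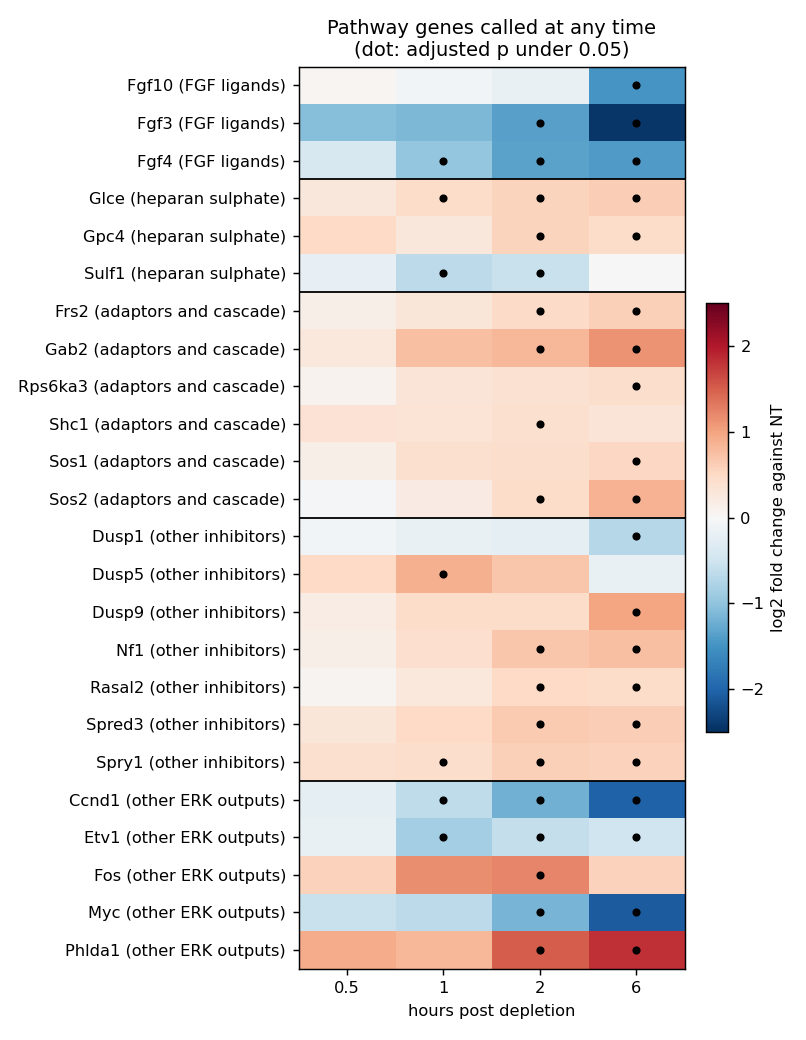
Log2 fold change against NT (colour, red above and blue below 0) at each time (columns, hours post depletion) for the 24 pathway genes called at any time (rows, with their group in brackets, separated by lines). Dots mark values that passed the test. At 6 hpd the ligand genes are blue and the called adaptor genes red, while called ERK outputs are of both colours.

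The counts of pathway genes also depended on single libraries. At 1 hpd none was up without NT replicate 1, NT replicate 2, 1 hpd replicate 1 or 1 hpd replicate 2, and 6 or 7 were up without 2 hpd replicate 1 or 2, while 2 were down without NT replicate 1, NT replicate 2 or 1 hpd replicate 2. At 2 hpd the 12 genes up became 7 without NT replicate 1, 3 without NT replicate 2, 5 without 2 hpd replicate 1, 19 without 2 hpd replicate 2 and 7 without either replicate of 6 hpd, and the 6 genes down became 3 without NT replicate 1 and 2 without NT replicate 2. At 6 hpd 7 were up without NT replicate 2. Of the calls given above, those of Fgf3, Fgf10, Glce, Gab2, Sos2, Dusp9, Nf1, Dusp1, Spry1, Myc, Ccnd1 and Phlda1 at 6 hpd were made without any single library. Frs2 was not called without NT replicate 2 (0.52, adjusted p 0.0644), Sos1 without that library (0.43, 0.194) or 6 hpd replicate 2 (0.44, 0.149), Spred3 without NT replicate 2 (0.61, 0.0611) or 6 hpd replicate 1 (0.60, 0.0643), and Sulf1 at 1 hpd when NT replicate 1 (-0.53, 0.122) or 1 hpd replicate 2 (-0.51, 0.184) was left out. Earlier calls moved as well, Glce at 1 hpd without any 1 of the 4 libraries compared (0.44 to 0.51, 0.0875 to 0.189) and at 2 hpd when NT replicate 2 (0.51, 0.0823) or 2 hpd replicate 1 (0.40, 0.0741) was left out, Gpc4 at 2 hpd without either NT library (0.45 and 0.65, 0.138 and 0.0598) or 2 hpd replicate 1 (0.37, 0.191), and Sulf1 at 2 hpd without either NT library (-0.47 and -0.66, 0.123 and 0.053) or 2 hpd replicate 2 (-0.43, 0.0815). At 6 hpd Gpc4 was lost without any 1 of 6 libraries, both of NT, 1 hpd and 6 hpd (0.38 to 0.58, 0.051 to 0.155), Dusp5 at 1 hpd without any 1 of the 4 compared (0.72 to 1.06, 0.0665 to 0.30), and Fos at 2 hpd without any 1 of 6, both of NT, 2 hpd and 6 hpd (0.80 to 1.79, 0.0596 to 0.256). Neither Dusp5 nor Fos was called by DESeq2 (0.0743 and 0.0565) or with total counts (0.0766 and 0.0905). Spred3 at 6 hpd was not called with total counts (0.52, 0.054), nor was Gpc4 under a filter at a mean of 50 fragments (0.41, 0.0583).

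Transcription beside the 9 genes and the unit over Fgfr1 was read from the TUs within 50 kb on either strand. Of 43 such TUs 30 were tested, 19 of them without a symbol, and edgeR called 0, 0, 1 and 0 at the 4 times, beside 1.31%, 5.75%, 9.83% and 15.8% of all TUs, with 4, 5, 8 and 7 at an unadjusted p under 0.05. Fgfr2 had no tested TU within this distance. The single call was an extragenic unit opposite Spry4 (chr18:38567803-38581538, plus strand), which overlapped the end of the Spry4 TU by 0.632 kb and rose by log2 1.82 ± 0.49 at 2 hpd (adjusted p 0.0268) on a mean of 15.2 fragments. It was not called without NT replicate 1 (1.64, adjusted p 0.129), NT replicate 2 (2.01, 0.12) or 2 hpd replicate 1 (1.58, 0.176), and DESeq2 gave it no adjusted p.

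Of the 4 tested TUs within 50 kb of Fgf4, 2 were called down at each of 1, 2 and 6 hpd, when 3.61%, 5.57% and 9.20% of all TUs were. Ccnd1, 42.5 kb away on the opposite strand, fell at all 3 of these times (-2.02 ± 0.19 at 6 hpd), Fgf3, 5.97 kb away on the same strand, at 2 and 6 hpd, and a unit without a symbol that overlapped Fgf4 on the opposite strand by 22.0 kb at 1 hpd (-0.76 ± 0.20, adjusted p 0.039). Oraov1, 29.1 kb from Fgf4, was not called, with values of -0.20 to -0.084. The calls at 1 hpd were lost without either NT library or either library of 1 hpd, and without either library of 6 hpd 1 of them was lost. At 2 hpd Fgf3 was not called without NT replicate 1 (-1.32, adjusted p 0.0685), NT replicate 2 (-1.40, 0.0719) or 2 hpd replicate 1 (-1.25, 0.142), and the 2 calls at 6 hpd were made without any single library.

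**Figure D4:**
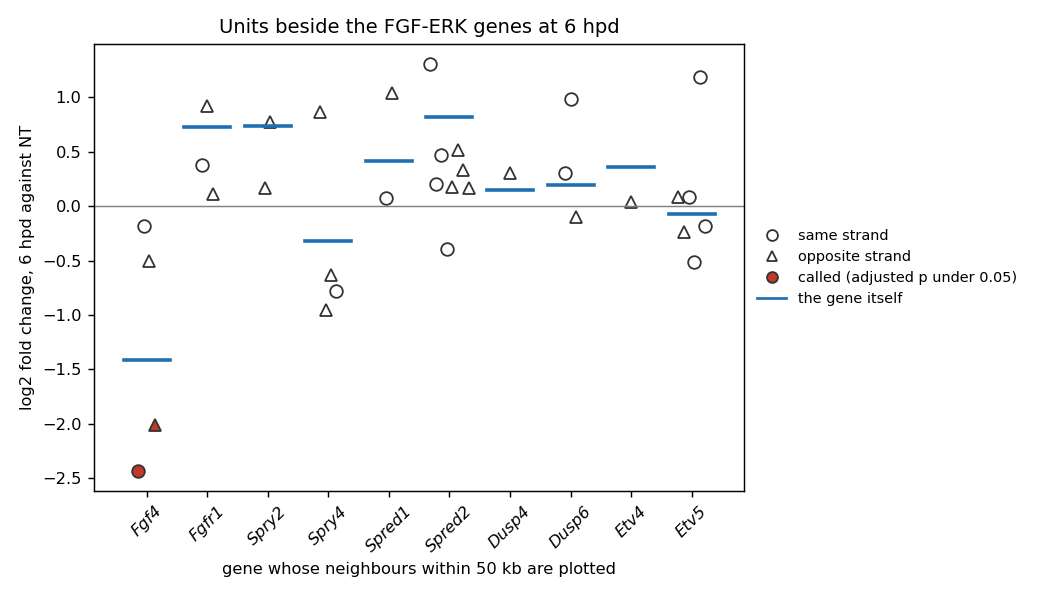
Log2 fold change at 6 hpd against NT (vertical axis) of the tested TUs within 50 kb of each gene (horizontal axis). Circles are TUs on the same strand, triangles those on the opposite strand, filled symbols passed the test, and the line is the gene itself. The only filled symbols are Fgf3 and Ccnd1 beside Fgf4, at -2.43 and -2.02.

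Markers of other cell types were read beside these changes. Of 7 primitive endoderm markers 6 had a TU, and their summed level was 17.6 to 18.0 CPM in NT, 22.95 to 25.7 CPM at 0.5 hpd, 27.1 to 33.0 CPM at 1 hpd, 36.0 to 41.6 CPM at 2 hpd and 51.7 to 62.4 CPM at 6 hpd. It lay above NT from 0.5 hpd on, while Fgfr2 overlapped NT until 1 hpd. Most of this sum was Dab2, an endocytic adaptor gene, which rose from 13.2 to 49.7 CPM (1.92 ± 0.15 at 6 hpd, adjusted p 5.78e-07, and called from 1 hpd on), while Gata4 was at 1.04 CPM in NT and 0.858 at 6 hpd, Sox17 stayed at or under 0.755 CPM in the group means, Gata6 was called at 2 hpd (1.14 ± 0.31, 0.0295, lost without either NT library, 0.11 and 0.149, without 2 hpd replicate 1, 0.164, with DESeq2, 0.0791, and with total counts, 0.0571), and Foxa2 had no TU. Pdgfra was 1.92 CPM in NT and 3.51 at 6 hpd (0.88 ± 0.35, adjusted p 0.102), and Sox7, at a mean of 8.30 fragments, was 0.168 CPM in NT and 0.415 to 0.715 CPM after depletion (1.99 ± 0.71 at 1 hpd, 0.134), neither called at any time. Among primed state markers, Fgf5, itself a ligand gene, had no TU, Otx2 fell at each time (-1.02 ± 0.20 at 6 hpd, 0.00241), with its call at 0.5 hpd lost without any 1 of the 4 libraries compared (-1.10 to -0.74, 0.057 to 0.305) and that at 1 hpd without 1 hpd replicate 1 (-0.96, 0.0682), and Pou3f1 rose to 2.65 CPM at 6 hpd. Eomes, of the trophoblast list, was 2.42 CPM in NT, 6.94, 7.52 and 8.41 CPM from 0.5 to 2 hpd and 3.33 CPM at 6 hpd. Cdx2 of that list had too few fragments to be tested (0.034 CPM in NT and 0.373 at 6 hpd), and Elf5 had no TU. Mixl1, Pax6 and Col1a1, tested as markers of mesoderm, neural cells and fibroblasts, were not called at any time. The part of such cells in the changes of Fgfr2 or Spry4 was not tested.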

How the data were processed

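TT_chem_seq fragment counts of 10 libraries were used. According to the processing notes and methods, alignment to mm10 was done by the authors with BWA 0.7.17-r1188. They filtered alignments with SAMtools 1.10, removed duplicates with Picard 2.12.0, split them by strand, defined TUs from the pooled signal of each strand and counted fragments per TU, and the deposited values are these raw counts, without normalization. Read errors and TU boundaries set by the authors therefore enter every value, and a TU can run past its gene.

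Members were matched by symbol, and the unit over Fgfr1 by its position against the RefSeq annotation of the same build. The members and gene lists were chosen with earlier results of these data known. Testing took the TUs with over 10 fragments in 2 or more libraries, in edgeR 4.0.16 (R 4.3.3) with TMM factors, 1 coefficient per group over all 10 libraries and the quasi-likelihood F-test. The threshold for a call was an adjusted p (Benjamini-Hochberg) of 0.05. The SE is the size of a log2 fold change over the square root of F, and intervals are at 95%. The procedure was tested on simulated data. Named were all members, Fgf4, at most 4 called genes of each pathway group by size of change, at most 6 called neighbouring TUs by p, and the 3 TUs most like the member with the smallest joint p. Depths of 11131490 to 25854106 fragments limit genes of low counts, and intervals cover the fitted spread of these libraries only.

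Alternatives were DESeq2 1.42.0, RLE factors, total counts, a filter at a mean of 50 fragments and none, a fit of only the compared libraries, a block for the replicate number, neighbours within 10 kb and leaving out each library. Counting the unit over Fgfr1 as a member was added after the data were seen. The tables were read with Python 3.11.15.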

Additional observations from a re-analysis of the deposited data

Results flagged for a closer look

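The change of Fgfr2 differed between times. In the direct tests its transcription at 6 hpd stood above that at 2 hpd by log2 1.07 ± 0.14 (edgeR adjusted p 0.00204) and above that at 1 hpd by 1.69 ± 0.15 (1.58e-05), and both calls were made in every setting run.

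The change of Spry4 also differed between times, in the other direction. Its transcription at 6 hpd stood below that at 2 hpd, with a log2 difference of -1.57 ± 0.30 (edgeR adjusted p 0.0223), and below that at 1 hpd, with -1.35 ± 0.30 (0.0165). The lowest adjusted p among the lost calls was 0.0589, without 6 hpd replicate 2.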

How the results depend on the processing

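Calls of Spry2 at 2 and 6 hpd, Spred2 at 2 and 6 hpd, Fgfr2 at 6 hpd, the unit over Fgfr1 at 1, 2 and 6 hpd and Fgf4 at 1, 2 and 6 hpd were made in every alternative run. For the log2 fold changes against NT of the 9 members, the unit over Fgfr1 and Fgf4, and those of Fgfr2 and Spry4 between later times, the alternatives other than leaving out a library gave 298 values on the same side of the threshold, 9 weaker, 21 stronger and 3 of opposite sign, and leaving out libraries gave 419, 28, 16 and 17. The values of opposite sign were Etv5 with total counts at 0.5 hpd (-0.028) and 2 hpd (-0.11) and at 2 hpd under a filter at a mean of 50 fragments (-0.023), none of them called. Leaving out single libraries gave ranges across 0 for Spry4 at 6 hpd (-0.75 to 0.31), Dusp6 at 2 hpd (-0.076 to 0.40) and 6 hpd (-0.0094 to 0.47), Dusp4 at 0.5 hpd (-0.50 to 1.13), 1 hpd (-0.26 to 1.36), 2 hpd (-0.33 to 1.29) and 6 hpd (-0.42 to 1.21), Spred1 at 0.5 hpd (-0.11 to 0.29), Etv5 at 0.5 hpd (-0.050 to 0.063), 2 hpd (-0.047 to 0.064) and 6 hpd (-0.18 to 0.051) and Fgfr2 at 0.5 hpd (-0.054 to 0.31). Etv4 at 6 hpd also lost its call with DESeq2 (0.39, adjusted p 0.0799), total counts (0.27, 0.149), no count filter (0.38, 0.0552), the filter at a mean of 50 (0.31, 0.0504) and only the libraries compared (0.34, 0.0647). Total counts moved the median of all TUs to -0.056, -0.13, -0.16 and -0.13. Under total counts, Spry2 (0.55, adjusted p 0.0646) and Spry4 (1.29, 0.0654) at 0.5 hpd and Etv4 at 2 hpd (0.36, 0.0734) were not called, Spry4 also lost its call under the filter at a mean of 50 (1.33, 0.0716), and the split of all calls became 462 higher and 1233 lower after 1 h (611 and 1026 with TMM factors) and 835 and 2066 after 2 h (1213 and 1585).

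Members called up at 0.5 hpd numbered 1 with total counts, which was Spred2 (0.33, adjusted p 0.0473) and neither of the 2 called with TMM factors. At 1 hpd they numbered 3 with DESeq2, with RLE factors and with no count filter, 2 with a mean of at least 50 fragments and with the unit over Fgfr1 counted, and 4 with only the libraries compared, which also called 5 from 1 to 6 hpd. Leaving out single libraries gave 0 to 3 members up at 0.5 hpd, 0 to 4 at 1 hpd, 3 to 6 at 2 hpd, 3 to 5 at 6 hpd, 3 to 6 in the joint test, 1 to 2 calls from 2 to 6 hpd and 1 to 3 from 1 to 6 hpd. For pathway genes it gave 0 to 2 up at 0.5 hpd, 0 to 7 up and 2 to 4 down at 1 hpd, 3 to 19 up and 2 to 6 down at 2 hpd, and 7 to 17 up and 6 to 8 down at 6 hpd. For all neighbouring TUs it gave 0 to 2 down at 1 hpd, 0 to 4 up and 1 to 3 down at 2 hpd, and 0 to 2 up and 2 to 2 down at 6 hpd. Pathway genes up at 0.5 hpd numbered 1 with a mean of at least 50 fragments and with only the libraries compared, those up at 1 hpd 19 with only the libraries compared, those up at 2 hpd 7 with total counts, a mean of at least 50 fragments or only the libraries compared, and those up at 6 hpd 8 with a mean of at least 50 fragments. Neighbouring TUs down at 1 hpd numbered 1 with RLE factors and 0 with a mean of at least 50 fragments, those up at 2 hpd 0 with DESeq2 or that mean, those down at 2 hpd 1 with DESeq2 or that mean, those up at 6 hpd 1 with no count filter and 2 with only the libraries compared, and those down at 6 hpd 1 with that mean. Within 10 kb, 1 was down at each of 1, 2 and 6 hpd. The causes of these moves were not tested. DESeq2 gave no adjusted p to Dusp4 at 0.5 hpd or to Fgf3, Pou3f1 and the unit opposite Spry4 at 2 hpd, which are left out of its counts. Summing all TUs of a symbol was not run, since each symbol named 1 TU.

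Replicate numbers recur in each group, but the labels do not say what they mark. The differences between replicates 1 and 2 of different groups correlated across TUs at 0.0544 to 0.663 over 10 pairs of groups, so that not every pair passed 0.1. With the replicate number as a block, members called up numbered 4, 4, 6 and 5 at 0.5, 1, 2 and 6 hpd, when the block called 3.94%, 11.2%, 19.1% and 26.1% of all TUs in either direction. In the direct comparisons it called 1 member from 1 to 2 hpd and 5 from 1 to 6 hpd. Calls of single genes that appeared under the block were those of Fgf4 (adjusted p 0.0274), Spred2 (0.0475) and Etv4 (0.00538) at 0.5 hpd, Spry2 (0.00324), Spry4 (0.00159) and Etv4 (0.01) at 1 hpd, and Spred1 at 2 hpd (0.0367) and 6 hpd (0.0137). The block called 3 pathway genes up and 1 down at 0.5 hpd, 14 up at 1 hpd and 22 up at 2 hpd, and of neighbouring TUs 1 up and 4 down at 1 hpd, 5 up at 2 hpd and 5 up at 6 hpd.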
